A study of Rattus norvegicus with 172 samples.

Results

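Acetylcholine, serotonin, noradrenaline, dopamine and histamine reach the dentate gyrus mainly from neurons elsewhere in the brain, and the genes of their receptors were followed here in its granule cells. They comprised genes of muscarinic (Chrm) and nicotinic (Chrna, Chrnb) acetylcholine receptors and of serotonin (Htr), adrenergic (Adra, Adrb), dopamine (Drd) and histamine (Hrh) receptors. Only probe sets with 1 gene symbol were used, and the nicotinic subunits Chrnd, Chrne and Chrng were not among these genes. Genes were chosen by symbol alone, and the probe set with the highest mean level stood for a gene that had several. This gave 49 genes with 68 probe sets, among 14217 genes with a probe set of 1 symbol. Of the 49 genes, 15 could be tested, because they lay above the median of their own array in at least 6 of 164 rats, and 9 lay above it in more than 50% of the 41 control rats.

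Muscarinic receptors, on which pilocarpine acts, couple to G proteins: Chrm1, Chrm3 and Chrm5 to Gq and phospholipase C, Chrm2 and Chrm4 to Gi. Nicotinic receptors are ion channels built from several subunits. The monoamine receptors couple to G proteins, apart from the channel made of Htr3 subunits. Among them are receptors that raise cyclic AMP (Htr4, Drd1), receptors that lower it (Adra2a, Adra2c, Hrh3) and receptors that act through phospholipase C (Adra1b, Adra1d, Hrh1, Htr2c). Granule cells receive the cortical input of the hippocampus, and these transmitters are known to alter their excitability.

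All rats were male Sprague-Dawley weighing 175 to 250 g, with no age stated. Granule cells were captured by laser from stained brain sections 10 µm thick. In the pilocarpine model (laboratories A and B) every rat, controls included, first had methylscopolamine at 1 mg/kg against peripheral effects, and then pilocarpine at 300 to 350 mg/kg or saline. Pentobarbital at 25 mg/kg ended the status epilepticus, a lasting seizure, after 90 min. Kainate or saline was injected hourly at 5 mg/kg. Kainate laboratory A waited until the seizure stopped unaided, within 6 to 8 h, whereas kainate laboratory B used 7.5 mg/kg as the first dose and ended it with pentobarbital at 90 min. SSSE, the labels' name for a further status epilepticus model, was run by 1 laboratory, and kindling by laboratories A and B, with the means of induction of both not given in the sources used here. Tissue was collected on day 1, 3 or 10 in the status epilepticus models and at stage 2, 4 or 5 of kindling, beside 1 control group per laboratory. Each of the 28 groups had 6 rats, apart from SSSE controls (5), SSSE day 3 (5) and SSSE day 10 (4). The times of a model share their control rats, so their changes are not independent of each other.

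Values are log2(signal + 16), a scale with a floor of 4.00 that understates changes of dim genes, and array medians ran from 5.46 to 6.13 on it. A change is treated minus control within a laboratory, averaged where a model had both laboratories, and is given ± its standard error. It was called at an adjusted p under 0.05 (limma, Benjamini-Hochberg over 10751 genes tested). Of the 164 rats, 6 had a median correlation with their own group more than 0.02 under the group's median. The labels of SSSE day 1 rat 3 and of kindling A stage 2 rat 4 contradict each other, and calls of receptor genes that rest on either, and calls of other genes named at SSSE day 1, were repeated without it. The mean level of 8 granule cell markers was 9.56 to 10.35 in control rats, against 4.95 to 6.21 for 8 markers of microglia and macrophages. It was 7.86 to 9.37 for 9 astrocyte markers, 6.17 to 9.48 for 8 oligodendrocyte markers and 6.04 to 8.35 for 7 interneuron markers. Genes of other cell types were thus measured in the captured tissue, and these levels do not give the share of each type.

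Few of these receptor genes were detected clearly in control granule cells. Adra1d, Htr4 and Drd1 lay above the array median in 41 of 41 controls, Chrm3 in 39, Hrh1 and Hrh3 in 38 each, Adra2c in 37, Htr2c in 28 and Htr5b in 21, the lowest above 50%. The next was Adra1b, in 10. The other tested genes were Htr5a (4 controls), Chrna7, Chrnb4 and Adra2a (3 each) and Chrna1 (0). Chrna1 passed the filter through 12 treated rats alone, so a difference in it was in part built into the filter. Htr5a, Chrna7, Chrnb4 and Adra2a had too few such controls to pass without treated rats, so this can hold in part for them too. The mean levels in controls, with SD over 41 rats, were Adra1d 8.04 ± 0.73, Htr4 7.82 ± 0.41, Drd1 7.53 ± 0.29, Htr2c 6.39 ± 1.26, Adra2c 6.32 ± 0.57, Hrh3 6.31 ± 0.58, Hrh1 6.20 ± 0.31, Chrm3 6.11 ± 0.27, Htr5b 5.71 ± 0.46, Adra1b 5.35 ± 0.39, Chrna7 5.13 ± 0.41, Adra2a 5.05 ± 0.46, Htr5a 5.05 ± 0.47, Chrna1 5.00 ± 0.30 and Chrnb4 4.85 ± 0.54. Probe sets differ in brightness for the same amount of RNA, so these levels do not rank the genes.

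The other 34 genes were not tested, with mean control levels from 4.06 (Chrnb3) to 5.01 (Htr3a). Among muscarinic receptors these were Chrm1 4.79, Chrm2 4.91, Chrm4 4.45 and Chrm5 4.57. The nicotinic subunits were Chrna10 4.25, Chrna2 4.48, Chrna3 4.23, Chrna4 4.55, Chrna5 4.47, Chrna6 4.20, Chrna9 4.28, Chrnb1 4.58, Chrnb2 4.41 and Chrnb3 4.06. The serotonin receptors were Htr1a 4.71, Htr1b 4.85, Htr1d 4.24, Htr1f 4.53, Htr2a 4.85, Htr2b 4.30, Htr3a 5.01, Htr3b 4.46, Htr6 4.47 and Htr7 4.87. The adrenergic receptors were Adra1a 4.21, Adra2b 4.59, Adrb1 4.59 and Adrb3 4.95, the dopamine receptors Drd2 4.97, Drd3 4.68, Drd4 4.99 and Drd5 4.21, and the histamine receptors Hrh2 4.34 and Hrh4 4.13. A level below the array median does not show that a receptor was absent.

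**Figure D1:**
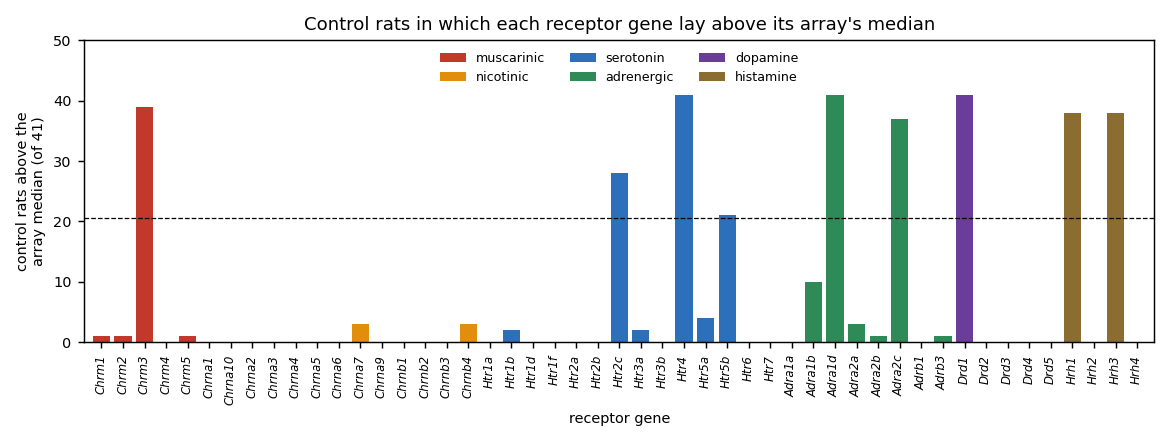
Bars give the number of control rats, of 41, in which each of the 49 receptor genes lay above the median of its array, and the dashed line marks 50% of the rats. Adra1d, Htr4 and Drd1 reach 41, Htr5b reaches 21 and Adra1b 10.

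RefSeq's table for the GRCr8 build held a promoter for 38 of the 49 genes, 14 of them tested, and the 250 bases before the start were searched on both strands. The motifs were the cyclic AMP response element TGACGTCA, the AP-1 site TGANTCA, the Egr site GCGTGGGCG and the GC box GGGCGG. The promoters that follow are shown because their genes moved together a day after pilocarpine and kainate, Htr5b and Adra1d downward and Hrh3 upward. They lie on the minus strand at chr13:35252587-35252836, chr3:139262332-139262581 and chr3:187574260-187574509, and are written 5′ to 3′ along the gene with GC boxes in capitals.
Htr5b: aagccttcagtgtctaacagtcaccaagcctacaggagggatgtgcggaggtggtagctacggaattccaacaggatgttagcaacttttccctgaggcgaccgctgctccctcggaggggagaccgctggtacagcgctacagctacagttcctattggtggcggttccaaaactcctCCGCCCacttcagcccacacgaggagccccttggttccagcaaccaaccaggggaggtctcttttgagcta
Adra1d: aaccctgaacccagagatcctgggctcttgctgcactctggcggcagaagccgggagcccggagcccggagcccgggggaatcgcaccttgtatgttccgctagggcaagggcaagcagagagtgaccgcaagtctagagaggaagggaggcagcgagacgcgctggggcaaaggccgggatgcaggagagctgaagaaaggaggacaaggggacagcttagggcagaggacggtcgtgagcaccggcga
Hrh3: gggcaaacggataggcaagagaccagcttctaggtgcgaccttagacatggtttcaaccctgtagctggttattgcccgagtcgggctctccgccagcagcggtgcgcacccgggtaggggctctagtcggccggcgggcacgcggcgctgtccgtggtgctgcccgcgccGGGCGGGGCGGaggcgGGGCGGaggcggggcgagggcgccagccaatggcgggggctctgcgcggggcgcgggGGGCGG
The Htr5b window holds 1 GC box, the Hrh3 window 4 and the Adra1d window 0. A GC box was present in 20 of the 38 receptor promoters and 8 of the 14 tested ones, and in 30.5% of all 33469 promoters. The cyclic AMP element (1.59% of all promoters) and the AP-1 site (6.34%) were in 0 of the 38, and the Egr site (0.478%) was in 1, that of Htr7. A match describes letters and not a site in use, and no match says nothing about the factor.

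The receptor genes had no common direction of change in their medians, but most of the called changes were falls. At pilocarpine day 1, 2 of 15 rose (Hrh3 and Chrna1) and 3 fell, where 32.1% of all genes were called, 15.8% higher and 16.3% lower. At kainate day 1, 1 rose and 4 fell, where 41.7% of all genes were called, 22.3% higher and 19.4% lower. In SSSE 2 fell at day 1, where 12.5% of all genes were called, 5.52% higher and 7.02% lower. At pilocarpine day 3, 1 fell (11.7% of all genes were called, 7.75% higher and 3.93% lower), and at day 10, 2 fell (8.94% of all genes were called, 3.82% higher and 5.12% lower). At kainate day 3, 1 fell (7.98% of all genes were called, 4.67% higher and 3.31% lower), as did 1 at day 10 (6.29% of all genes were called, 2.58% higher and 3.71% lower). SSSE had 1 that fell at day 3 (3.14% of all genes were called, 1.66% higher and 1.48% lower) and 1 at day 10 (0.344% of all genes were called, 0.177% higher and 0.167% lower). At kindling stage 5, 2 fell (7.10% of all genes were called, 3.23% higher and 3.87% lower). At stages 2 and 4 limma called 0 of 15 and 0 of all 10751 genes, and an unadjusted p under 0.05 was reached by 2 and 3 receptor genes and by 522 and 503 of all genes. Over the 12 comparisons the median change of the 15 lay between -0.06 and 0.10, and that of all genes between -0.02 and 0.02. Of the 21 called changes 9 were of Htr5b, 3 each of Adra1d and Drd1, 2 of Hrh3, and 1 each of Adra2a, Hrh1, Chrna1 and Chrm3. Those of Hrh3 and Chrna1 were rises, and all the others were falls. The call of Chrna1 is given as a description, since the gene entered through treated rats alone.

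**Figure D2:**
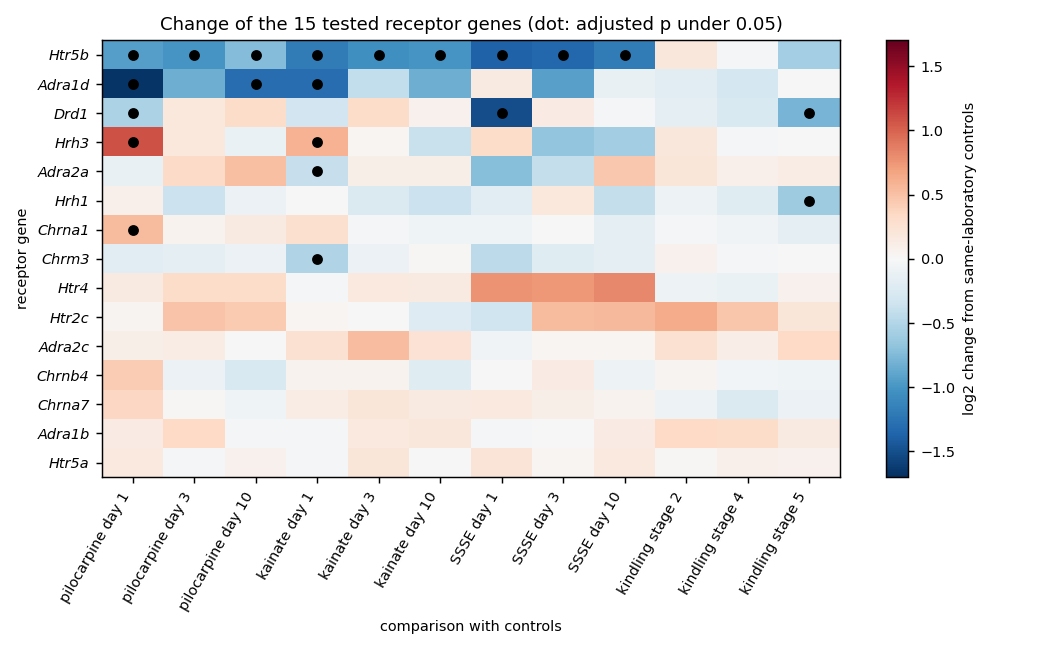
Colour gives the log2 change of each of the 15 tested receptor genes (rows) from same-laboratory controls in 12 comparisons (columns), and dots mark an adjusted p under 0.05. Htr5b is called in all 9 comparisons of status epilepticus with control, and 7 genes are called in none of the 12.

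Chrm3, the only muscarinic receptor gene tested, fell at kainate day 1, and is described in full after its values were seen. In laboratory A controls lay at 5.75 to 6.49 (median 5.94) and day 1 rats at 5.16 to 5.66 (median 5.39). In laboratory B they lay at 5.73 to 6.19 (median 5.98) and 5.22 to 5.76 (median 5.60). The groups of laboratory A did not overlap, and 1 rat of laboratory B lay within the control range. The change was -0.51 ± 0.10 (1.43-fold lower, adjusted p = 4.7e-05), and both laboratories passed alone (-0.61 ± 0.14 and -0.41 ± 0.14). Day 10 was higher than day 1 by 0.53 ± 0.10 (adjusted p = 4.5e-05, where 33.0% of all genes were called). A dimmer probe set of the gene, above the array median in 3 rats, changed by -0.36 ± 0.10 (limma, unadjusted p = 0.0006). At SSSE day 1 that probe set changed by -0.41 ± 0.13 (limma, unadjusted p = 0.0049), and at pilocarpine day 1 by -0.07 ± 0.16 (0.66). The dimmer probe sets of Adra2a, Drd1, Hrh1 and Hrh3, above it in 0 rats, are given with those genes.

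For the same gene the change at pilocarpine day 1 was -0.18 ± 0.11 (adjusted p = 0.22), and at SSSE day 1 it was -0.45 ± 0.16 (0.068). Pilocarpine is itself a muscarinic agonist, and its change differed from that of kainate by 0.33 ± 0.15, which was not called (adjusted p = 0.2). No difference between these 2 models was called for a receptor gene at any day, where 3.64%, 0.233% and 0.465% of all genes were called at days 1, 3 and 10.

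Among nicotinic subunits Chrna1, best known from muscle, was higher at pilocarpine day 1, and it too was singled out after its values were seen. It had passed the filter through treated rats alone, 4 of them in these groups, so its test supports nothing by itself. Laboratory A had controls of 4.85 to 5.91 (median 4.98) and day 1 rats of 4.70 to 5.98 (median 5.40), and laboratory B had 4.09 to 5.27 (median 5.02) and 5.26 to 6.37 (median 5.64). The groups overlapped in both, with 6 of 12 rats above their controls. The change was 0.53 ± 0.18 (adjusted p = 0.018). With every gene tested and no filter the adjusted p was 0.023, and it was not called with the first array of each rat alone (Chrna1 log2 change, pilocarpine day 1, 0.36, adjusted p = 0.13). At kainate day 1 it was -0.26 ± 0.20 in laboratory A and 0.81 ± 0.20 in laboratory B, and the difference of 1.07 ± 0.29 was not called (adjusted p = 0.36, where 0.00930% of all genes were). Chrna7, which forms the alpha-7 channel, changed by -0.24 to 0.35 and Chrnb4 by -0.26 to 0.44 over the 12 comparisons, with none called. Chrnb4 was lower at day 10 than at day 1 of pilocarpine by -0.70 ± 0.22 (adjusted p = 0.025, where 15.9% of all genes were called). It passed the filter only with the help of treated rats, so this is given as a description.

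**Figure D3:**
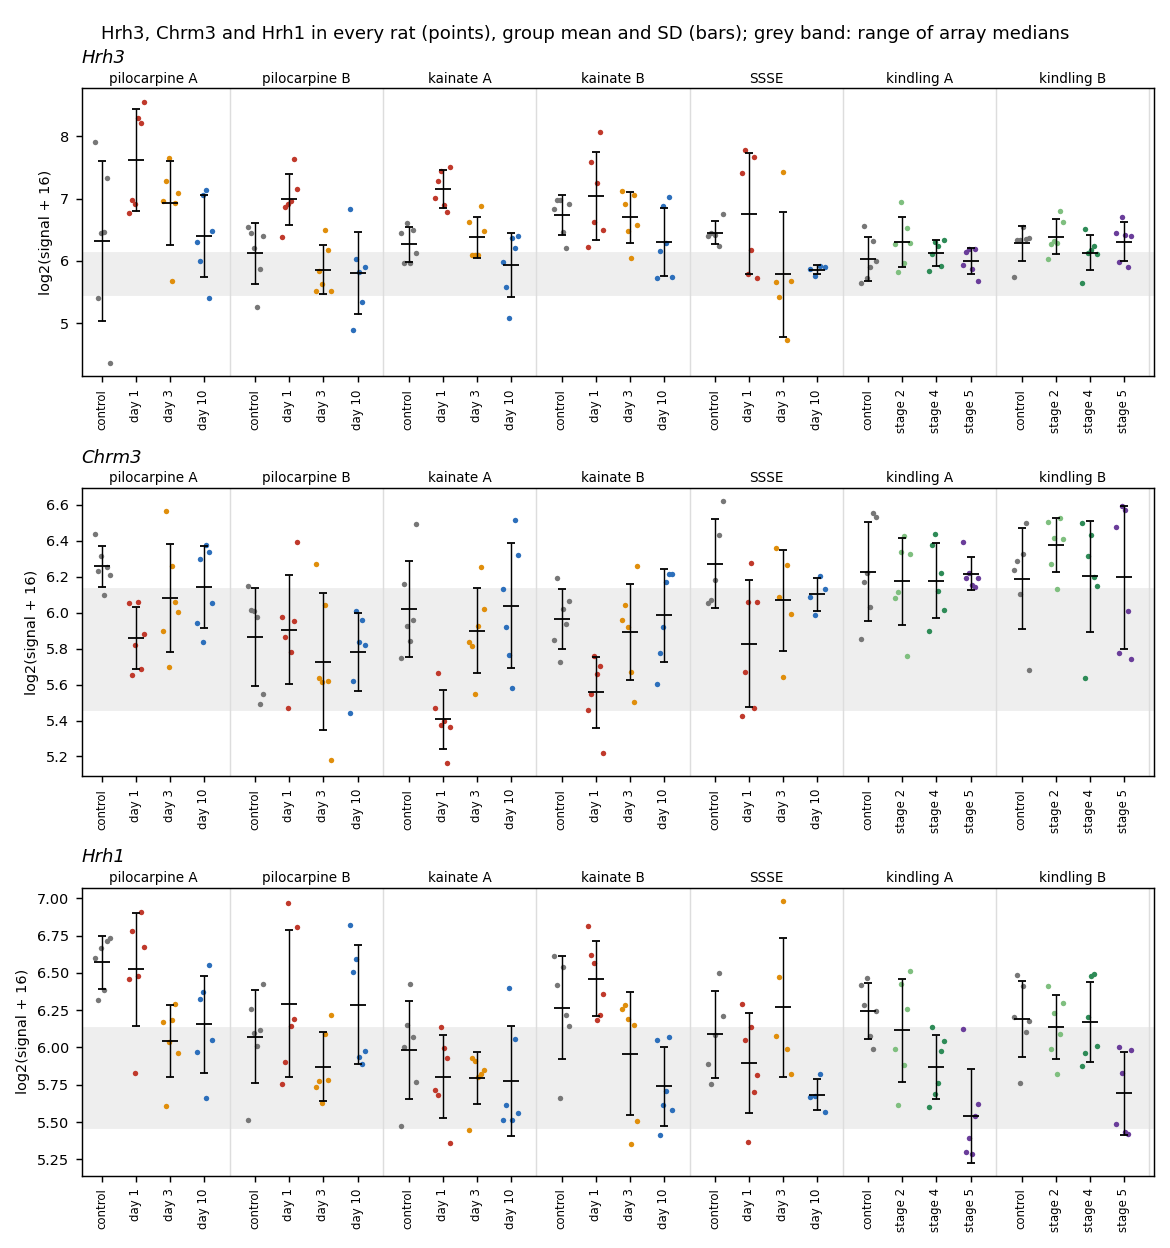
Points are the log2(signal + 16) levels of Hrh3, Chrm3 and Hrh1 in each of 164 rats, bars are group means with SD, and the grey band spans the array medians. Hrh3 is high at day 1 after pilocarpine and kainate, Chrm3 is low at kainate day 1, and Hrh1 is low at kindling stage 5.

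Of the serotonin receptors, Htr5b, which rodents have and humans have lost as a working gene, fell in all 3 models of status epilepticus at every time. Kainate laboratory A had controls of 5.21 to 6.32 (median 5.57), against 4.14 to 4.77 (median 4.59), 4.40 to 4.83 (median 4.76) and 4.25 to 4.93 (median 4.54) at days 1, 3 and 10. Kainate laboratory B had 5.61 to 6.39 (median 5.71) in controls and 4.27 to 5.05 (median 4.67), 4.31 to 5.11 (median 4.85) and 4.56 to 5.24 (median 5.00) after kainate. All 12 rats at each time lay below every control of their laboratory. The changes were -1.19 ± 0.12 (adjusted p = 3.5e-11), -1.05 ± 0.12 (2.3e-08) and -1.01 ± 0.12 (1.2e-07), and each laboratory passed alone at each time.

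In SSSE the Htr5b groups did not overlap either. The controls were at 6.28, 6.25, 6.11, 5.10 and 5.87, and the day 1 rats at 4.27 to 4.89 (median 4.53). The day 3 rats were at 4.77, 4.55, 4.42, 4.43 and 4.74, and the day 10 rats at 4.73, 4.94, 4.69 and 4.56. Every treated rat was below every control. The changes were -1.38 ± 0.17 (adjusted p = 0.00014), -1.34 ± 0.18 (0.00042) and -1.19 ± 0.19 (0.0051), and they stayed called without the rat of contradictory labels and without any other SSSE rat.

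After pilocarpine Htr5b overlapped more with its controls. Laboratory A had controls of 4.85 to 6.17 (median 5.85), and 4.72 to 5.26 (median 5.06), 4.25 to 5.36 (median 4.77) and 4.71 to 6.41 (median 5.24) at days 1, 3 and 10. Laboratory B had 5.22 to 6.91 (median 5.82), and then 4.31 to 5.25 (median 4.46), 4.27 to 5.41 (median 4.68) and 4.15 to 5.18 (median 4.67). Below every control of their laboratory were 6, 9 and 7 of 12 rats. The changes were -0.93 ± 0.18 (adjusted p = 0.0001), -1.01 ± 0.18 (0.00013) and -0.74 ± 0.18 (0.0076).

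Laboratory B passed alone at each of these times and laboratory A at none (adjusted p = 0.095, 0.06 and 0.71). But the difference between them was not called at any (adjusted p = 0.27 at day 10), where 0% of all genes were called. Earlier results of these data had marked pilocarpine B day 10 rats 1, 2 and 3 and SSSE day 3 rat 4 as resembling day 1. Without them the day 10 value of Htr5b (Htr5b log2 change, pilocarpine day 10) was -0.61, with adjusted p = 0.11. Those rats were picked from these same data and Htr5b was low at day 1, so a smaller fall was in part built in. Of 87 rats after status epilepticus, 1 lay above its array median for Htr5b, and the scale understates changes of genes this dim. The floor of 4.00 may limit the lowest of these values.

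In kindling Htr5b was not called against controls at any stage. Laboratory A controls were at 5.16 to 6.09 (median 5.49), stage 2 at 4.74 to 5.91 (median 5.62), stage 4 at 4.28 to 6.13 (median 4.83) and stage 5 at 4.42 to 5.08 (median 4.66). For laboratory B the values were 5.05 to 5.66 (median 5.42), 5.42 to 6.30 (median 6.00), 5.51 to 6.496 (median 5.81) and 4.10 to 6.42 (median 4.83). At stage 5 all 6 rats of laboratory A and 4 of laboratory B lay below every control, and 2 of laboratory B, at 6.24 and 6.42, lay above. The stage 5 change was -0.57 ± 0.20 (adjusted p = 0.074), and it was called with 1 in place of 16 added to the signal (Htr5b log2 change, kindling stage 5, -1.23, adjusted p = 0.038). Stage 5 was lower than stage 2 by -0.76 ± 0.20 (adjusted p = 0.029, where 2.65% of all genes were called), and by -0.83 ± 0.20 without the stage 2 rat of contradictory labels (0.014).

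**Figure D4:**
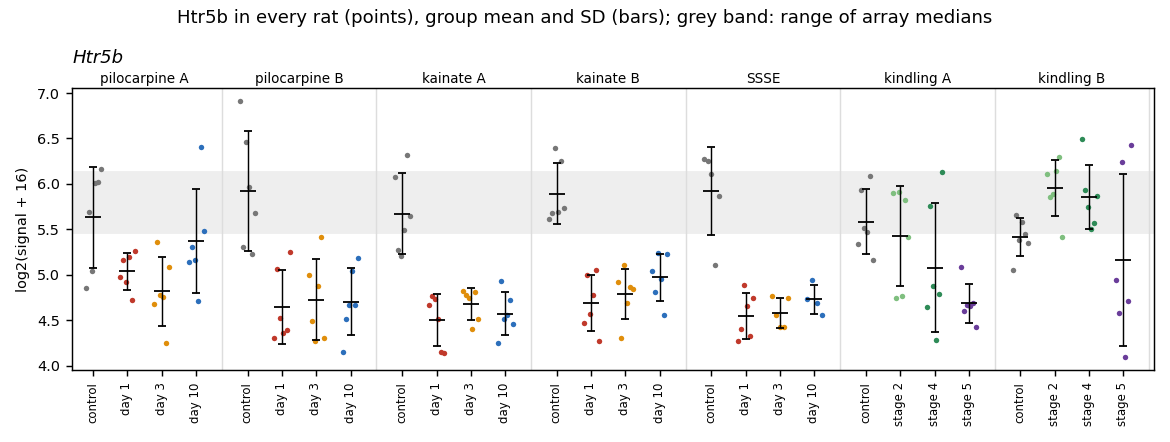
Points are the log2(signal + 16) level of Htr5b in each of 164 rats, bars are group means with SD, and the grey band spans the array medians from 5.46 to 6.13. After kainate and SSSE every rat is below the controls of its laboratory, and at kindling stage 5 10 of 12 rats are.

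Htr4, a serotonin receptor that raises cyclic AMP, had its largest changes in SSSE, none of them called. Its controls were at 8.25, 8.11, 7.87, 7.73 and 6.36, and its day 1 rats at 7.72 to 8.91 (median 8.49). Its day 3 rats were at 8.42, 8.43, 8.60, 8.34 and 8.26, and its day 10 rats at 8.95, 7.95, 8.37 and 8.63. Every day 3 rat was above every control, and 1 control, at 6.36, was well below the other 4. The changes were 0.76 ± 0.28 (adjusted p = 0.073), 0.74 ± 0.29 (0.16) and 0.81 ± 0.31 (0.38). With all 28 groups fitted together the first 2 were called (Htr4 log2 change, SSSE day 1, adjusted p = 0.0092, and Htr4 log2 change, SSSE day 3, 0.044). Htr2c, which acts through Gq, ranged from 4.63 to 11.06 over all rats, and its changes of -0.34 to 0.63 had standard errors of 0.27 to 0.62. Htr5a changed by -0.04 to 0.22, with none called.

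Adra1d, an alpha-1 adrenergic receptor that acts through Gq, had the largest change of the 15 genes, at pilocarpine day 1. Laboratory A had controls of 6.48 to 7.85 (median 7.02) and day 1 rats of 5.34 to 7.11 (median 5.64), and laboratory B had 6.82 to 8.26 (median 7.83) and 4.12 to 6.46 (median 5.81). Below every control of their laboratory were 11 of 12 rats, the exception being laboratory A rat 6. The change was -1.67 ± 0.30 (3.18-fold lower on this scale, adjusted p = 2.8e-05), and each laboratory passed alone. At day 3 it was -0.83 ± 0.30 (adjusted p = 0.068) and at day 10 -1.30 ± 0.30 (0.0044).

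The day 10 call of Adra1d was lost in 1 of 9 alternatives. Laboratory A day 10 rats lay at 5.74 to 7.48 (median 6.15) and those of laboratory B at 4.08 to 7.80 (median 5.88), with rats 1, 2 and 3 of laboratory B at 5.48, 4.14 and 4.08. Without the rats that resembled day 1 the value (Adra1d log2 change, pilocarpine day 10) was -0.69, with adjusted p = 0.19. Adra1d was low at day 1, so a smaller fall without rats picked from these same data for that likeness was in part built in.

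Adra1d fell at kainate day 1 too. Controls of laboratory A were at 8.24 to 8.995 (median 8.62) and day 1 rats at 5.68 to 8.10 (median 7.87), with no overlap. Controls of laboratory B were at 6.24 to 8.32 (median 7.33) and day 1 rats at 4.12 to 7.75 (median 6.02), 3 of them inside the control range. The change was -1.30 ± 0.34 (adjusted p = 0.0017), and it was -0.42 ± 0.34 (0.55) at day 3 and -0.83 ± 0.34 (0.14) at day 10.

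In SSSE the day 1 rats were mostly above the controls instead. The controls were at 8.43, 8.17, 8.53, 8.46 and 8.43 and the day 1 rats at 6.64 to 9.32 (median 8.85), 5 of 6 above every control and rat 1 below. The change was 0.16 ± 0.49 (adjusted p = 0.86). It exceeded the mean of the pilocarpine and kainate changes by 1.64 ± 0.49, in a comparison added after the values were seen, which did not pass (adjusted p = 0.058, where 1.39% of all genes did). Kindled rats were at 7.32 to 9.13, with no change called.

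**Figure D5:**
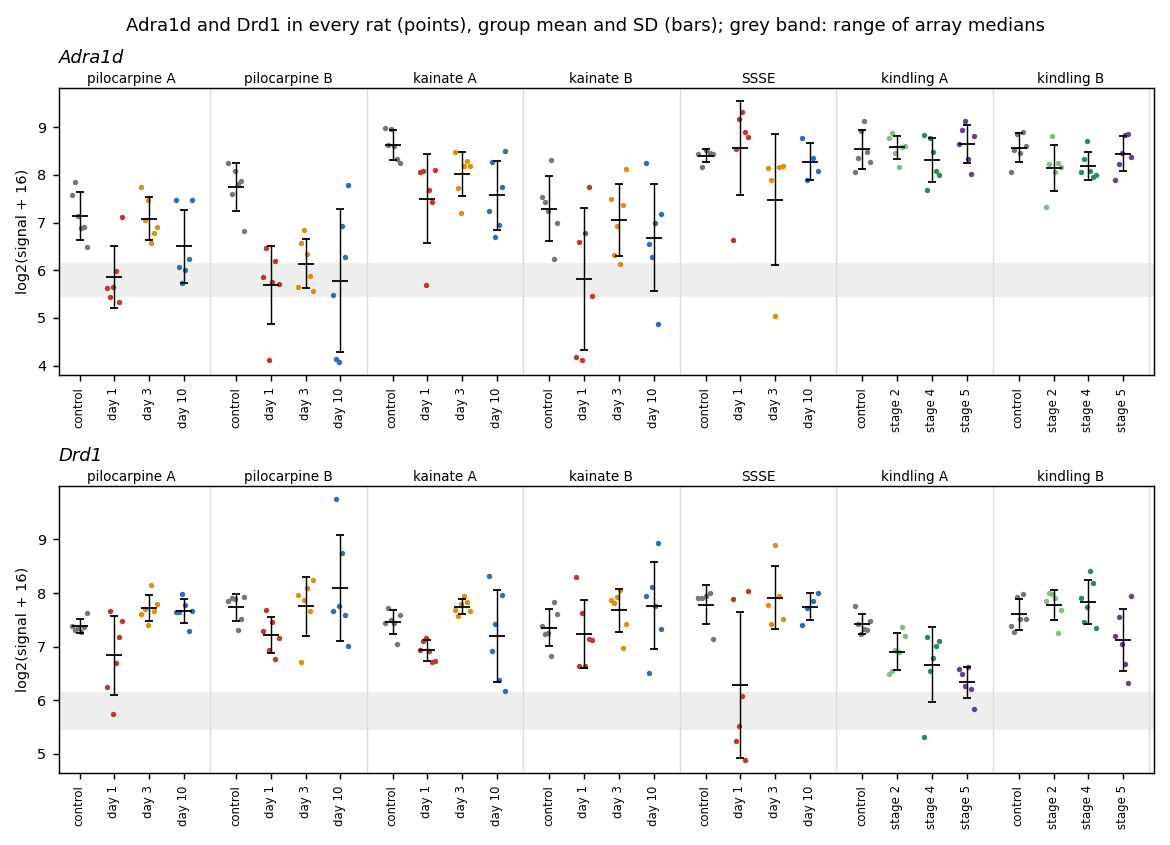
Points are the log2(signal + 16) levels of Adra1d and Drd1 in each of 164 rats, bars are group means with SD, and the grey band spans the array medians. Adra1d is low at day 1 after pilocarpine and kainate, and Drd1 is low in 4 of 6 SSSE day 1 rats and at kindling stage 5.

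Adra2a, an alpha-2 receptor that lowers cyclic AMP, fell at kainate day 1. In laboratory A controls were at 4.48 to 5.39 (median 5.02) and day 1 rats at 4.47 to 4.84 (median 4.71), and in laboratory B at 5.14 to 6.00 (median 5.59) and 4.65 to 5.24 (median 5.07). The groups overlapped, with 5 of 12 rats below their controls. The change was -0.39 ± 0.15 (adjusted p = 0.033), and it lost the call with 1 added to the signal, with the mean of its probe sets and with all 28 groups fitted together. Its dimmer probe set, above the array median in 0 rats, changed by -0.05 ± 0.09. The largest change of Adra2a, -0.73 at SSSE day 1, was not called, and the dimmer probe set changed by 0.09 ± 0.10 there. The SSSE controls were at 5.96, 5.34, 5.37, 5.26 and 5.70. The day 1 rats were at 4.20, 4.39, 4.90 (rat 3, of contradictory labels), 4.47, 4.31 and 6.53. For Adra2a day 10 exceeded day 1 by 0.49 ± 0.15 after kainate (adjusted p = 0.0091, where 33.0% of all genes were called). After pilocarpine it did so by 0.65 ± 0.18 (0.011, where 15.9% of all genes were called). Adra2a passed the filter only with the help of treated rats, so these differences and its call at kainate day 1 are given as a description. Adra2c, which also lowers cyclic AMP, changed by -0.06 to 0.52 and Adra1b, which acts through Gq, by -0.03 to 0.34, with none called. These do not show an absence of change: the 95% interval for Adra2c at kainate day 3, unadjusted, ran from 0.07 to 0.97. There laboratory A had controls at 5.31 to 6.66 (median 6.24) and day 3 rats at 6.78 to 7.59 (median 7.19), with no overlap, and laboratory B at 5.66 to 6.60 (median 5.87) and 5.25 to 6.47 (median 6.05). The changes were 1.10 ± 0.32 (adjusted p = 0.064) and -0.06 ± 0.32 (0.95). The difference of -1.17 ± 0.45, B minus A, was not called (adjusted p above 0.99, where 0% of all genes were called).

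Drd1, the dopamine receptor that raises cyclic AMP, fell most at SSSE day 1. The controls were at 7.90, 7.91, 7.95, 8.00 and 7.13 and the day 1 rats at 7.89, 5.24, 5.52, 6.09, 4.89 and 8.04. Of the 6 rats 4 lay far below every control and the other 2 at control levels. The change was -1.50 ± 0.47 (2.83-fold lower, adjusted p = 0.041). It lost the call without the rat of contradictory labels (Drd1 log2 change, SSSE day 1, -1.35, adjusted p = 0.085), without any of control rats 1 to 4 or day 1 rats 2 to 5 (adjusted p up to 0.097), and without the filter on low signal (0.053).

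After pilocarpine Drd1 fell at day 1. Laboratory A had controls of 7.27 to 7.64 (median 7.35) and day 1 rats of 5.75 to 7.67 (median 6.93), and laboratory B had 7.31 to 7.92 (median 7.87) and 6.78 to 7.68 (median 7.23). Below their controls were 8 of 12 rats and 1 was above. The change was -0.53 ± 0.20 (adjusted p = 0.038), and day 10 exceeded day 1 by 0.85 ± 0.20 (0.0035). At kainate day 1 the change was -0.32 ± 0.20 (adjusted p = 0.21).

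At kindling stage 5 Drd1 lay below every control of the laboratory in 10 of 12 rats. Laboratory A had controls of 7.24 to 7.75 (median 7.38), and 6.48 to 7.36 (median 6.92), 5.31 to 7.18 (median 6.90) and 5.84 to 6.62 (median 6.37) at stages 2, 4 and 5. The same groups of laboratory B were at 7.27 to 7.99 (median 7.52), 7.26 to 8.00 (median 7.88), 7.34 to 8.41 (median 7.82) and 6.31 to 7.94 (median 7.12). All stage 5 rats of laboratory A and 4 of laboratory B were below their controls. The change was -0.78 ± 0.16 (1.72-fold lower, adjusted p = 0.0027), with -1.09 ± 0.23 in laboratory A (adjusted p = 0.017) and -0.48 ± 0.23 in laboratory B (0.35). Stage 5 was lower than stage 2 by -0.62 ± 0.16 (adjusted p = 0.03), and by -0.62 without the stage 2 rat of contradictory labels (0.027). A dimmer probe set of Drd1, above the array median in 0 rats, changed by -0.42 ± 0.17 at SSSE day 1, -0.22 ± 0.16 at pilocarpine day 1 and -0.14 ± 0.08 at kindling stage 5. With the mean of both probe sets the changes were -0.96 (Drd1 log2 change, SSSE day 1, adjusted p = 0.042), -0.38 (Drd1 log2 change, pilocarpine day 1, 0.043) and -0.46 (Drd1 log2 change, kindling stage 5, 0.0073).

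Of the histamine receptors Hrh3, a Gi-coupled receptor that restrains transmitter release, rose at day 1 of pilocarpine and kainate. Pilocarpine laboratory A had widely spread controls of 4.35 to 7.91 (median 6.45) and day 1 rats of 6.77 to 8.56 (median 7.59). In pilocarpine laboratory B they were at 5.25 to 6.55 (median 6.30) and 6.38 to 7.64 (median 6.94). Of 12 rats 8 were above their controls. The change was 1.09 ± 0.28 (2.12-fold, adjusted p = 0.0023), and day 10 was lower than day 1 by -1.20 ± 0.28 (0.0029).

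After kainate, laboratory A had Hrh3 controls of 5.97 to 6.60 (median 6.29) and day 1 rats of 6.78 to 7.51 (median 7.14), with no overlap. In laboratory B they were at 6.20 to 6.99 (median 6.88) and 6.22 to 8.07 (median 6.94), with 3 of 6 inside the control range. The change was 0.60 ± 0.18 (1.51-fold, adjusted p = 0.0057), and day 10 was lower than day 1 by -0.98 ± 0.18 (2.4e-05). SSSE controls were at 6.41, 6.44, 6.41, 6.24 and 6.75 and its day 1 rats at 7.42, 7.78, 5.78, 6.18, 7.67 and 5.72, 3 above and 3 below every control, and the change of 0.31 ± 0.41 was not called (adjusted p = 0.64). A dimmer probe set of Hrh3, above the array median in 0 rats, changed by -0.03 ± 0.09 at pilocarpine day 1 and 0.11 ± 0.08 at kainate day 1. With the mean of both probe sets the changes were 0.53 (Hrh3 log2 change, pilocarpine day 1, adjusted p = 0.01) and 0.35 (Hrh3 log2 change, kainate day 1, 0.0089).

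Hrh1, the histamine receptor that acts through Gq, fell at kindling stage 5. The controls of laboratory A were at 5.99 to 6.47 (median 6.27) and its stage 5 rats at 5.28 to 6.12 (median 5.46), and those of laboratory B at 5.76 to 6.49 (median 6.19) and 5.42 to 6.00 (median 5.66). The groups overlapped, with 8 of 12 rats below their controls. The change was -0.60 ± 0.10 (1.52-fold lower, adjusted p = 0.00045), and stage 5 was lower than stage 2 by -0.51 ± 0.10 (0.0049), or by -0.53 without the stage 2 rat of contradictory labels (0.0029). The other probe sets of Hrh1, above the array median in 0 rats, changed by 0.01 ± 0.05 and -0.02 ± 0.03 at stage 5. With the mean of all 3 probe sets the change (Hrh1 log2 change, kindling stage 5) was -0.20, with adjusted p = 0.0028. At day 1 after pilocarpine and kainate Hrh1 changed by 0.09 ± 0.14 and 0.01 ± 0.12. After kainate day 10 was lower than day 1 by -0.37 ± 0.12 (adjusted p = 0.017).

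Within single laboratories the share of all genes called at day 1 was 22.6% and 15.1% for pilocarpine A and B and 21.6% and 32.7% for kainate A and B. At day 3 it was 4.73%, 3.63%, 1.47% and 4.28% in the same order, and at day 10 0.753%, 8.42%, 2.06% and 0.893%. At kindling stage 5 it was 0.977% and 0.344%. No difference between the laboratories of a model was called for a receptor gene at any time. Among all genes the share called was 0.00930% at kainate day 1 and 0% in every other such comparison.

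Other genes of these transmitters were followed through lists. Of 11 measured genes of transmitter synthesis, transport and breakdown, 0 rose and 3 fell at pilocarpine day 1, 1 rose and 3 fell at kainate day 1, and 0 rose and 1 fell at SSSE day 1. Among all genes 15.8% rose and 16.3% fell at pilocarpine day 1, 22.3% and 19.4% at kainate day 1, and 5.52% and 7.02% at SSSE day 1. Hdc, which makes histamine, was lower in 8 of 12 comparisons, at -1.56 ± 0.18 for pilocarpine day 1 (adjusted p = 1.2e-08), -1.29 ± 0.18 for kainate day 1 (1.6e-07), -0.69 ± 0.14 for SSSE day 1 (0.0051, or 0.014 without the rat of contradictory labels) and -0.68 ± 0.19 for kindling stage 5 (0.021). Slc22a3, a transporter that takes up monoamines, was lower at all 6 times after pilocarpine and kainate, at -0.998 to -0.42. Slc5a7, the choline transporter, changed by 0.88 ± 0.16 at kainate day 1 (adjusted p = 2.2e-05), and Maob, a monoamine oxidase, by 1.43 ± 0.26 at pilocarpine day 3 (9.9e-05).

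Of 15 measured G proteins and effectors, 1 rose and 6 fell at pilocarpine day 1, 0 rose and 7 fell at kainate day 1, 0 rose and 2 fell at SSSE day 1, and 1 rose and 2 fell at kindling stage 5. Among all genes 15.8%, 22.3%, 5.52% and 3.23% rose in these 4 comparisons. The shares that fell were 16.3%, 19.4%, 7.02% and 3.87%. Ppp1r1b, a phosphatase inhibitor downstream of Drd1, was at -1.82 ± 0.21, -1.53 ± 0.19 and -1.56 ± 0.39 at day 1 of the 3 models (adjusted p = 9.7e-09, 4.0e-09 and 0.015) and -0.49 ± 0.12 at kindling stage 5 (0.0089). Without the rat of contradictory labels the SSSE value was -1.57 (adjusted p = 0.027). Kcnq5, a subunit of the potassium channel that muscarinic receptors close, was lower in 8 of 12 comparisons, at -1.40 ± 0.12 for kainate day 1 (adjusted p = 3.8e-13). Plcb1, a phospholipase C that Gq activates, was at -1.002 ± 0.14 at pilocarpine day 1 (adjusted p = 4.4e-07), and Gnal, the G protein Golf, at -0.94 ± 0.11 at kainate day 1 (8.5e-10).

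Of 6 measured genes of receptor desensitisation and trafficking, 3 rose at pilocarpine day 1, 3 at kainate day 1 and 1 at SSSE day 1, and 0 fell, where 15.8%, 22.3% and 5.52% of all genes rose. S100a10, a partner of serotonin receptors, rose by 2.47 ± 0.29, 2.28 ± 0.20 and 1.52 ± 0.42 (adjusted p = 1.4e-08, 4.4e-13 and 0.025) at day 1 of pilocarpine, kainate and SSSE, and Arrb1, a beta-arrestin, by 0.65 ± 0.15 and 0.72 ± 0.09 after pilocarpine and kainate (0.00061 and 8.4e-09). The SSSE call of S100a10 was lost without the rat of contradictory labels (1.40, adjusted p = 0.055), which left 0 of 6 called there. Those of Hdc, Ppp1r1b, Kcnq5 and Tmem35a were kept (adjusted p up to 0.049). Of 4 measured partners and other subunits of nicotinic receptors, 1 rose and 0 fell at pilocarpine day 1 and at SSSE day 1, and 1 rose and 1 fell at kainate day 1. Among all genes 16.3%, 7.02% and 19.4% fell at these times, and the shares that rose are those given above. Tmem35a, a chaperone for nicotinic receptors, rose in 7 of 12 comparisons, by 0.39 to 0.59.

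Markers of cell types moved beside the receptor genes. Of 8 granule cell markers 8 fell at pilocarpine day 1, 8 at kainate day 1, 3 at SSSE day 1 and 2 at kindling stage 5, where 16.3%, 19.4%, 7.02% and 3.87% of all genes fell, with means per rat of 8.17 to 9.58, 8.50 to 8.95, 8.83 to 10.09 and 9.44 to 10.39. Without the rat of contradictory labels 2 of 8 fell at SSSE day 1. At SSSE days 3 and 10 0 and 0 of 8 were called lower, where 1.48% and 0.167% of all genes were, with median changes of -0.34 and -0.04 and means per rat of 9.01 to 10.20 and 10.00 to 10.24 against 10.01 to 10.35 in controls. Of 8 markers of microglia and macrophages 4 rose at day 1 and 6 at day 3 after pilocarpine, and 4 and 6 after kainate, with means per rat of 5.93 to 7.33 and 5.72 to 6.45 at day 3. Among all genes 15.8% rose at pilocarpine day 1 and 22.3% at kainate day 1, and 7.75% rose at pilocarpine day 3 and 4.67% at kainate day 3. Of 9 astrocyte markers 2 rose and 5 fell at pilocarpine day 1, and 2 and 5 at kainate day 1. Those rises were near the share of all genes, of which 15.8% and 22.3% rose and 16.3% and 19.4% fell. At day 3 5 of the 9 markers rose and 0 fell after pilocarpine (median change 0.72), and 3 and 0 after kainate (median 0.29). Their part in the receptor changes was not tested, and fewer cells of a type and less RNA per cell cannot be told apart.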

How the data were processed

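Granule cell RNA was hybridised to 172 Affymetrix arrays. The authors deposited MAS5 signal as linear intensity, per the submitters' processing notes, which give no version. Every array has a trimmed mean (2% off each end) between 150.04 and 150.06, and array medians run from 28.0 to 54.2. Of 31099 probe sets, 57 array controls, 436 with several symbols and 9780 without a symbol were left out. Repeated arrays of 8 rats were averaged (correlation 0.946 to 0.996). From the deposited values log2(signal + 16) was computed and fitted per model with limma 3.58.1 in R 4.3.3, with 1 mean per laboratory and time. The script was tested on simulated data. The number of rats limits the precision. The p-values weigh a change against the spread between rats within groups, and not against the spread between laboratories.

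The members and lists were chosen with earlier results of these data known. All members are named, with values by group for tested ones called in at least 2 comparisons or among the 3 largest changes of a comparison, at most 14 in all. Lists name at most 3 called genes per comparison. SSSE day 1 rat 3 is day 1 by its title and control by its other labels, and kindling A stage 2 rat 4 carries kainate as its model. Rat numbers were not taken as pairs, since same-number rats correlated at -0.46 to 0.65. Alternatives covered the value added to the signal, the filter, the scaling, the probe sets, the samples fitted, repeated arrays, a replicate block and left-out rats, with each rat left out in turn for SSSE alone.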

Additional observations from a re-analysis of the deposited data

Results flagged for a closer look

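Of 64 pairs of a gene and a group examined for a rat far from the others, 6 had one, where chance gives about 1 in 20. For Adra1d these were pilocarpine laboratory A day 1 rat 6, at 7.112 against 5.98 for the next rat, pilocarpine laboratory B day 1 rat 3, at 4.123 against 5.709, and kainate laboratory A day 1 rat 3, at 5.681 against 7.442. For Drd1 they were pilocarpine laboratory A control rat 6, at 7.636 against 7.39, and SSSE control rat 5, at 7.135 against 7.899. For Chrna1 it was pilocarpine laboratory A control rat 5, at 5.915 against 5.201. All values are log2(signal + 16).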

How the results depend on the processing

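Of the 21 called changes of receptor genes, 16 kept their direction and call under the 8 to 21 alternatives run for them and none reversed. The exceptions were Htr5b and Adra1d at pilocarpine day 10, Adra2a at kainate day 1, Chrna1 at pilocarpine day 1 and Drd1 at SSSE day 1, and 11 of 159 other changes were called under some alternative. Each rat was left out in turn in SSSE alone, whose groups held 4 to 6 rats, so for the other models the alternatives include no such step. Leaving out the rats with contradictory labels from stage 5 minus stage 2 and from the listed genes was added after the values were seen. The count of called members at pilocarpine day 3, 1 as reported, was 3 with all 28 groups fitted together, 3 with the first array only, 2 without the rats unlike their group and 2 without the rats that resembled day 1. Without the latter the count at pilocarpine day 10 was 0 in place of 2, which was in part built in, since those rats were picked from these same data. At SSSE day 1 the count of 2 became 1 without the filter, 4 with the mean of all probe sets and 1 without the rat with contradictory labels, and it ranged from 1 to 4 over leaving out each rat: it was 1 without control 1, 2, 3 or 4 or day 1 rat 2 or 3, and 4 without day 1 rat 6. At SSSE day 3 the count of 1 became 2 with all 28 groups fitted together. With the replicate number as a block, the count was 2 in place of 1 at kainate day 10 and at SSSE day 3 and within 1.5 times elsewhere, and 50 of 164 rats correlated best with their own number (27.2 by equal chance), which is a hint from the data and not from the design. With 1 in place of 16 added to the signal, the largest fall of Htr5b (Htr5b log2 change, SSSE day 1) was -2.50. Signal over background limits Htr5b, Chrna1 and Adra2a, which lie near or below the array medians, and all genes left untested. The causes were not tested.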

Other observations

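Of the 49 receptor genes Htr2c had the highest SD among control rats, 1.26 on the log2 scale. Ttr, a gene of the choroid plexus, which is known to express Htr2c strongly, had a median of 6.42 and ran from 5.01 to 12.85 over 164 rats. In the 3 rats highest in Htr2c, kainate A day 1 rat 1 (11.06), pilocarpine A day 1 rat 4 (10.45) and kainate A control rat 5 (10.39), Ttr was at 11.63, 12.85 and 11.66. In kindling A stage 2 rat 3, also high in Htr2c (9.16), Ttr was at 6.07. The choroid plexus genes were chosen after the values were seen, and their part in the Htr2c level was not tested.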
